A study of Mus musculus with 75 samples.

Results

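The genes described here make, regulate or export cholesterol and make fatty acids in mouse skin fibroblasts. They were 36 of the 24984 genes listed in the count files, taken by name from a list of sterol synthesis, sterol sensing, lipogenesis and sterol efflux genes. All 36 were listed and passed the filter on low counts in each of the 5 RNA-seq experiments. By role they fell into 8 genes of the route from acetyl-CoA to squalene, 10 of the route from squalene to cholesterol, 5 of the SREBP sensing system, 9 of fatty acid synthesis and desaturation, and 4 of sterol efflux.

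Fibroblasts came from mouse skin and were grown in serum-containing medium. The study's methods name the strain C57BL/6 for the cells of 2-month-old females and no strain for those of newborn mice. The passage series held untreated cells of 2-month-old females at passages P1, P3, P5 and P7, with 4 RNA-seq libraries at each passage, and followed cells from early culture into replicative senescence, the loss of division after repeated passaging. In the intervention libraries, E2f4 overexpression (2 libraries) was compared with an EGFP-expressing vector (2 libraries), both delivered by lentivirus with doxycycline-induced expression in pre-senescent cells. E2f4 hairpin sh1 (3) was compared with its nt control (3) in proliferating P3 cells, Tead1 hairpins sh3 and sh4 (3 each) with their nt control (3), and Atf3 hairpins sh5 and sh6 (3 each) with their nt control (3) in pre-senescent cells. The hairpin cells carried lentiviral vectors, the nt controls included, and had been selected with puromycin. As the study lists them, the Tead1 hairpins sh3 and sh4 target almost the same stretch of the transcript, so they are not independent of each other in what else they might bind. The sources give fibroblasts of both newborn and 2-month-old mice for the interventions without saying which library came from which. ATAC-seq peak lists were held for 4 samples at P1 and 3 each at P3, P5 and P7. The labels do not say that replicates came from separate animals or cultures, so the p-values measure only the spread between these samples, which may be technical.

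Cholesterol is built from acetyl-CoA through mevalonate, the isoprenoid diphosphates and squalene. When membrane sterol is low, the escort protein SCAP carries the SREBP transcription factors from the endoplasmic reticulum to the Golgi, where they are cut and released to switch on sterol and fatty acid genes, while INSIG proteins hold SCAP back when sterol is high. When oxysterols accumulate, the LXR receptors, encoded by Nr1h2 and Nr1h3, switch on the exporters Abca1 and Abcg1 and the SREBP gene Srebf1. Serum lipoproteins also supply cultured fibroblasts with cholesterol, and in skin both the epidermal barrier and sebum depend on local lipid synthesis.

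The promoters below show what sequence these genes share at their start sites. RefSeq promoters, 250 bases before to 50 bases after the start on GRCm38, were held for 28 of the 36 genes. They were searched on both strands for TCACNCCAC, a form of the sterol regulatory element bound by SREBP, for CCAAT, the core of the NF-Y site that often accompanies it, and for the LXR element, AGGTCA repeated after a spacer of 4 bases. Matches were counted by gene, in any promoter held for it, so genes with several promoters had more chances of a match. CCAAT was present in 20 of the 28 genes (71.4%), against 11096 of all 27025 genes with promoters of that length (41.1%). TCACNCCAC was present in 1 of the 28 (3.57%) against 388 of all these genes (1.44%), and the LXR element in 0 of the 28 against 4 of all these genes (0.0148%). These matches describe letters in a window and were not tested for binding. The 5 sequences are the only promoter with the TCACNCCAC match (Hmgcs1) and 4 genes with several CCAAT copies that follow different courses in the results, and each is written on the strand of its gene. Capitals mark TCACCCCAC in Hmgcs1 and, in all 5, CCAAT or its reverse complement ATTGG, with a pair of overlapping copies in Fasn. They lie at chr13:119690101-119690400 (Hmgcs1, plus strand), chr5:114444019-114444318 (Mvk, plus strand), chr8:64733529-64733828 (Msmo1, minus strand), chr1:169969156-169969455 (Hsd17b7, minus strand) and chr11:120824498-120824797 (Fasn, minus strand).
Hmgcs1: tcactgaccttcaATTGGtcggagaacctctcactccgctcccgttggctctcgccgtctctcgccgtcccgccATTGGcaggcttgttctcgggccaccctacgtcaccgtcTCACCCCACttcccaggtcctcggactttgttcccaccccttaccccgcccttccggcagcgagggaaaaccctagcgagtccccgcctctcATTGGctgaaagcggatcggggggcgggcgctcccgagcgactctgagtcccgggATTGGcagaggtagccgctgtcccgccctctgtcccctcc
Mvk: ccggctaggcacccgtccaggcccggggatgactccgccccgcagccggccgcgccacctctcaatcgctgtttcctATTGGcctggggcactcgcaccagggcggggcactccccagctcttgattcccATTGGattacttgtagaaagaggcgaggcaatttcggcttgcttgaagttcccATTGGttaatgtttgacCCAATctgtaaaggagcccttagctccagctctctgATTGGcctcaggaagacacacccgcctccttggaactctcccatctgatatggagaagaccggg
Msmo1: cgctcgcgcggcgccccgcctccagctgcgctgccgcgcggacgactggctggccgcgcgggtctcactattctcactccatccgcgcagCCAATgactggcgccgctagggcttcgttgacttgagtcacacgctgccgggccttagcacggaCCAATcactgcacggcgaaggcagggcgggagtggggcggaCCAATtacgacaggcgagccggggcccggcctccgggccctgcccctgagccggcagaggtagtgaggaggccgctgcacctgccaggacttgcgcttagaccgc
Hsd17b7: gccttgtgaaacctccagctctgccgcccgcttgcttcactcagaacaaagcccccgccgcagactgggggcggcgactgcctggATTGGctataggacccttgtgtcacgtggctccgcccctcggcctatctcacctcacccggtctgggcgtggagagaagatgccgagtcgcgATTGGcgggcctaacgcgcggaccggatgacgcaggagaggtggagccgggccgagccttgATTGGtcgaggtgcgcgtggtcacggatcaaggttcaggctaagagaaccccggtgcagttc
Fasn: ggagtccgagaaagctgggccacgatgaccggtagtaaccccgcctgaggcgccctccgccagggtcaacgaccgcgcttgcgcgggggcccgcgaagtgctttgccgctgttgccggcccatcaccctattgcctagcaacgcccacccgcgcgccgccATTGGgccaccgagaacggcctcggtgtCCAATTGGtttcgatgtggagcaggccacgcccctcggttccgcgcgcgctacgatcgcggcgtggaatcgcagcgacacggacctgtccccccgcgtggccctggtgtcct

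Library totals ran from 9147324 to 27552949 counts. Levels are given as CPM, counts relative to library size after edgeR's TMM scaling, differences as log2 fold changes with their standard error (SE), and a gene passed the test where the edgeR quasi-likelihood test gave a Benjamini-Hochberg adjusted p under 0.05 over all genes of its experiment. The median log2 fold change of all genes tested lay between -0.031 and 0.009 in the 13 comparisons. Some libraries stood apart from their group. Replicate 4 was the lowest of the 4 libraries in 33 of the 36 genes at P3, 23 at P5 and 29 at P7 (19 at P1), and was 0.29 (P3), 0.29 (P5) and 0.32 (P7) log2 units under its group mean in the median gene, so each passage count is also given without replicate 4 of every passage. Replicate 3 of Atf3 sh5 also stood apart: genome-wide, its deviation from the group mean had a Spearman correlation with gene GC content of -0.63, against 0.51 and 0.64 in replicates 1 and 2 (10723 genes). In the passage libraries that correlation ran from -0.66 to 0.59 (10767 genes), and calls gained or lost after an offset for GC content are given with the comparisons. RNA-seq shares of all genes are given for the main fit only. Counts from other fits and counts of 2-fold changes have no such share beside them, so they describe the calls and not the group against all genes. Of the 36 genes, 4 overlap exons of another gene over more than 2% of their length: Mvd (34.44%), Fdft1 (7.49%), Lss (5.55%) and Acss2 (3.99%). Counting ignored strand, so their counts can include reads of the neighbour.

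**Figure D1:**
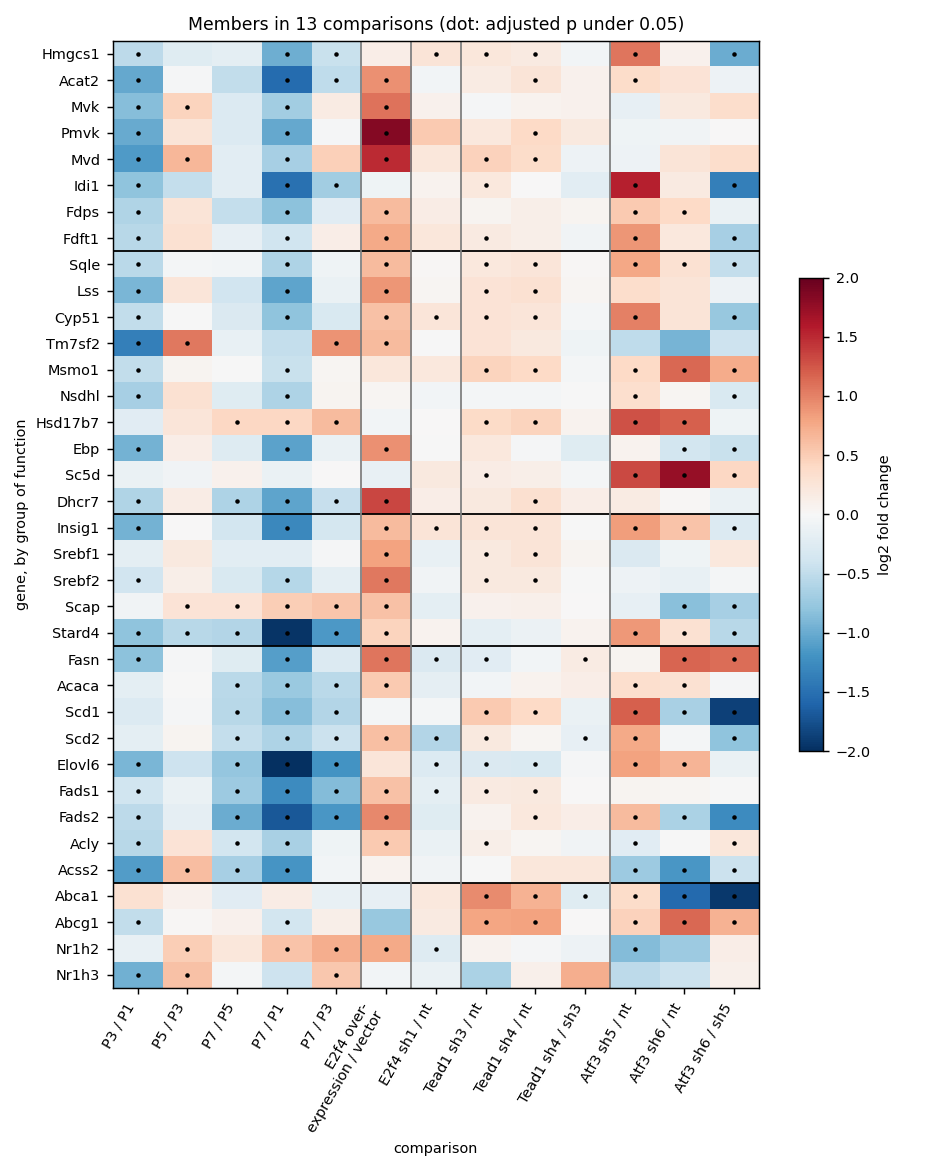
Log2 fold changes of the 36 genes (rows, grouped by role) in the 13 RNA-seq comparisons (columns), drawn on a colour scale that ends at -2 and 2, with a dot where the adjusted p was under 0.05. The column of P7 against P1 holds 28 genes that passed in the lower direction and 3 in the higher direction, and the column of E2f4 overexpression holds 24 in the higher direction and 0 in the lower.

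The first question was when, over the passages, these genes changed. Most of the fall in the sterol synthesis genes came early, between P1 and P3. From P1 to P3, 27 of the 36 genes fell and 0 rose, with a median log2 fold change of -0.56, against 17.5% of all 13442 genes tested that passed as lower and 16% as higher. All 8 genes of the route to squalene fell (median -0.83), as did 8 of 10 on the route from squalene to cholesterol (-0.57), 3 of 5 in the sensing group (-0.38), 6 of 9 in lipogenesis (-0.52) and 2 of 4 in efflux (-0.32). Without replicate 4 of every passage, 26 fell and only the call of Srebf2 was lost. Under the GC offset Hsd17b7 (-0.37, adjusted p = 0.00528) and Sc5d (-0.28, adjusted p = 0.0291) passed as lower too.

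Among the mevalonate enzymes, Mvd, which decarboxylates diphosphomevalonate, fell by 1.13 on the log2 scale from P1 to P3 (SE 0.2, adjusted p = 0.000195). Acat2, the cytosolic thiolase at the head of the route, had 169, 187, 192 and 181 CPM at P1 and 99.1, 100, 97.1 and 59.1 CPM at P3, a fall of 1.03 (SE 0.18, adjusted p = 0.000171). Pmvk, phosphomevalonate kinase, fell by 1.01 (SE 0.22, adjusted p = 0.0014). In Acat2 no P3 library reached the lowest P1 library, and replicate 4 lay well under the other P3 libraries. Hmgcs1, which makes the HMG-CoA that is reduced to mevalonate, had 446, 458, 411 and 426 CPM at P1, 313, 339, 306 and 244 CPM at P3, 264, 286, 266 and 198 CPM at P5 and 273, 182, 251 and 179 CPM at P7. Its P1 libraries lay above every later library, while the ranges of P3, P5 and P7 overlapped.

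On the route from squalene to cholesterol, Tm7sf2, a sterol reductase of low expression, moved down and up again. Its level was 13.6, 11.01, 12.7 and 12.8 CPM at P1, 7.23, 4.66, 4.51 and 2.85 CPM at P3, 9.05, 9.54, 12.0 and 9.33 CPM at P5 and 12.9, 7.87, 9.61 and 5.64 CPM at P7. It fell by 1.37 from P1 to P3 (SE 0.23, adjusted p = 0.000161) and rose by 1.05 from P3 to P5 (SE 0.24, adjusted p = 0.00316), and all P3 libraries lay under all P1 and all P5 libraries. Ebp, the sterol isomerase, fell by 0.94 in the first step with the smallest adjusted p of the 36 genes (SE 0.11, adjusted p = 2.06e-06). Acss2, which makes acetyl-CoA from acetate, fell by 1.12 (SE 0.19, adjusted p = 0.000196). Nr1h3, the LXR receptor at the lowest level of the 36 genes, fell by 0.96 (SE 0.2, adjusted p = 0.0012), from 5.93 ± 0.96 to 3.04 ± 0.419 CPM (SD, n = 4).

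In the sensing group the SREBP feedback gene fell while 1 of the 2 SREBP genes did not pass. Insig1, itself an SREBP target, had 285, 295, 276 and 269 CPM at P1, 171, 155, 153 and 105 CPM at P3, 156, 134, 181 and 118 CPM at P5 and 134, 112, 132 and 82.2 CPM at P7, a fall of 0.94 from P1 to P3 (SE 0.16, adjusted p = 0.00011). Srebf2, which encodes the SREBP best known for sterol synthesis genes, changed by -0.38 (adjusted p = 0.0112), and Srebf1, better known for lipogenesis, by -0.20 (adjusted p = 0.151). The exporter Abca1 changed by 0.30 (adjusted p = 0.0777). The step therefore held falls in the enzymes and in Insig1 together with values for Srebf1 and Abca1 that did not pass.

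Other cell types in the culture moved over the same step. Summed CPM of 8 macrophage markers was 316 to 497 at P1 and 44.98 to 62.01 at P3. That of 8 adipocyte markers was 104.5 to 110.5 at P1 and 22.02 to 31.07 at P3, with Cidec and Lep at 0 at both passages and Cfd at 0 at P3. Keratinocyte markers (7, Krt15 at 0) went from 58.6–368.9 to 2.949–5.52 CPM, endothelial markers (5) from 131.6–138.3 to 35.33–39.79 CPM and skeletal muscle markers (6, Ckm at 0 at P3) from 117–179.7 to 51.78–57.79 CPM. Of the macrophage markers 8 of 8 passed in the lower direction, of the keratinocyte markers 4 of the 5 tested, of the adipocyte markers 2 of the 3 tested, of the muscle markers 4 of the 5 tested and of the endothelial markers 5 of 5. The 6 sebocyte markers summed to under 2 CPM in every P1, P3 and P7 library, and the 8 fibroblast markers were by far the highest list, at 2.151e+04 to 2.352e+04 CPM at P1 and 3.685e+04 to 4.337e+04 CPM at P3. The fibroblast markers did not move together: 5 passed in the higher direction and 3 in the lower, with Fn1 at 1.56 and Lum at -2.15. The part of the other cell types in the fall of the sterol genes was not tested. In bulk RNA fewer cells of a type and less RNA per cell cannot be told apart.

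From P3 to P5, 28 of the 36 genes did not pass in either direction, and the group median was 0.10. In this step 7 genes rose (19.4%), a share not far from the 13.4% of all genes, and 1 fell (2.78%), against 15.3%. Beside Tm7sf2, the genes that rose were Mvd (0.67, SE 0.2, adjusted p = 0.0159), Acss2 (0.61, SE 0.2, adjusted p = 0.0249), Nr1h3 (0.58, SE 0.21, adjusted p = 0.041), Nr1h2 (0.49, SE 0.15, adjusted p = 0.0236), Mvk (0.44, SE 0.14, adjusted p = 0.0256) and Scap (0.28, SE 0.087, adjusted p = 0.0235). The gene that fell was Stard4, a carrier of sterol between membranes, by 0.56 (SE 0.14, adjusted p = 0.00568). Srebf1 (0.19, adjusted p = 0.175), Srebf2 (0.12, adjusted p = 0.445), Insig1 (0.0087, adjusted p = 0.972) and Abca1 (0.083, adjusted p = 0.655) did not pass.

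The P5 and P3 libraries differed along GC content, with a Spearman correlation between fold change and GC of 0.51 over 10796 genes and 0.58 over the 36 genes. With the GC offset 6 genes rose and 0 fell, the calls of Mvk, Scap, Stard4 and Nr1h3 being lost and those of Nsdhl (0.43, adjusted p = 0.0146) and Hsd17b7 (0.42, adjusted p = 0.0036) gained. Without replicate 4 of every passage, 7 rose and 1 fell, with Mvk, Scap, Nr1h2 and Nr1h3 lost. Leaving out single libraries gave 2 (without P5 replicate 3) to 10 genes, and 4 without P3 replicate 2, 3 or 4. The rise of Tm7sf2, Mvd and Acss2 passed in the main fit, with the GC offset and without replicate 4 of every passage.

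From P5 to P7 most of the genes that fell were fatty acid genes. Here 8 of the 9 lipogenesis genes fell and 0 of the 8 genes of the route to squalene passed, and the difference between these groups was not tested. Mvk (-0.34, adjusted p = 0.0479) and Fdps (-0.49, adjusted p = 0.0483), of that route, passed as lower with the GC offset. In all, 10 of the 36 genes fell, against 9.1% of all genes, and 2 rose, against 7.67%, with a median of -0.27. Fads2 and Fads1 encode the front-end desaturases of polyunsaturated fatty acids, Elovl6 lengthens palmitate, Acaca makes malonyl-CoA, and Scd1 and Scd2 introduce the double bond of oleate. Fads2 had 98.1, 87.3, 100 and 73.2 CPM at P3, 94.7, 80.8, 84.5 and 57.5 CPM at P5 and 39.0, 45.7, 46.3 and 28.4 CPM at P7, a fall of 0.99 in the last step (SE 0.15, adjusted p = 0.000132). No P7 library of Fads2 reached the lowest P5 library.

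Fads1 fell by 0.72 from P5 to P7 (SE 0.097, adjusted p = 3.72e-05), Elovl6 by 0.78 (SE 0.19, adjusted p = 0.0066) and Acaca by 0.54 (SE 0.1, adjusted p = 0.00105). Acss2 fell by 0.67 (SE 0.2, adjusted p = 0.0237), Dhcr7, the reductase of the last step to cholesterol, by 0.61 (SE 0.13, adjusted p = 0.00355), Stard4 by 0.59 (SE 0.14, adjusted p = 0.00636) and Scd1 by 0.56 (SE 0.16, adjusted p = 0.0229). Both genes that rose, Hsd17b7 (0.41, adjusted p = 0.0124) and Scap (0.27, adjusted p = 0.0354), moved against the rest. Srebf1 changed by -0.21 (adjusted p = 0.189), Srebf2 by -0.31 (adjusted p = 0.0577), Insig1 by -0.36 (adjusted p = 0.127), Nr1h3 by -0.037 (adjusted p = 0.929) and Abca1 by -0.23 (adjusted p = 0.23), none of which passed. Both SREBP genes passed as lower in this step with the GC offset, Srebf1 at -0.23 (adjusted p = 0.0186) and Srebf2 at -0.36 (adjusted p = 0.00924). With only the P5 and P7 libraries in the fit, 6 genes fell and 0 rose. With replicate 4 of every passage left out, 14 fell and 2 rose. Without P5 replicate 1, 7 genes passed, Scap, Scd1, Scd2, Acly and Acss2 being lost, and without P5 replicate 3 or P7 replicate 4, 8 passed.

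Over the whole series, from P1 to P7, 28 genes fell, against 31.9% of all genes, and 3 rose, against 30.5%, with a median of -0.72. The falls covered 8 of 8 genes of the route to squalene (median -0.90), 7 of 10 on the route from squalene to cholesterol (-0.61), 3 of 5 in the sensing group (-0.57), 9 of 9 in lipogenesis (-1.10) and 1 of 4 in efflux (-0.11), and 13 genes fell more than 2-fold. Elovl6 had 145, 151, 151 and 137 CPM at P1, 76.6, 87.3, 83.8 and 61.4 CPM at P3, 72.6, 67.6, 57.9 and 34.9 CPM at P5 and 33.0, 29.8, 46.5 and 26.5 CPM at P7, a fall of 2.10 from P1 to P7 (SE 0.19, adjusted p = 1.17e-08). Stard4 had 157, 169, 161 and 163 CPM at P1, 98.2, 99.5, 101 and 71.4 CPM at P3, 71.2, 64.4, 68.7 and 46.6 CPM at P5 and 48.4, 37.2, 47.8 and 33.0 CPM at P7, a fall of 1.96 (SE 0.14, adjusted p = 5.91e-10). Stard4 was the one gene of the 36 that fell in each of the 3 steps.

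Fads2 fell by 1.69 from P1 to P7 (SE 0.15, adjusted p = 1.24e-08), Acat2 by 1.54 (SE 0.18, adjusted p = 4.56e-07) and Idi1, the isomerase of isopentenyl diphosphate, by 1.5 (SE 0.19, adjusted p = 1.06e-06). Insig1 fell by 1.29 (SE 0.16, adjusted p = 7.4e-07), Fads1 by 1.26 (SE 0.098, adjusted p = 1.48e-09) and Acss2 by 1.18 (SE 0.2, adjusted p = 3.39e-05). Srebf2 also fell, by 0.57 (adjusted p = 0.000144), whereas Srebf1 (-0.21, adjusted p = 0.08), Nr1h3 (-0.42, adjusted p = 0.0747) and Abca1 (0.15, adjusted p = 0.32) did not pass. The 3 genes that rose were Nr1h2 (0.57, adjusted p = 0.00323), Scap (0.49, adjusted p = 7.47e-05) and Hsd17b7 (0.41, adjusted p = 0.00228). Hsd17b7, which reduces the keto group left by sterol demethylation, had 158, 174, 166 and 170 CPM at P1, 143, 160, 138 and 128 CPM at P3, 184, 184, 170 and 133 CPM at P5 and 217, 235, 250 and 187 CPM at P7. All its P7 libraries lay above all P1 and P3 libraries, and its neighbours in the same demethylation complex, Msmo1 (-0.44, adjusted p = 0.0159) and Nsdhl (-0.61, adjusted p = 0.000382), fell. Without replicate 4 of every passage 27 genes fell and 3 rose, Abcg1 being lost. Under the GC offset Msmo1 was lost, and Srebf1 (-0.33, adjusted p = 0.000323), Nr1h3 (-0.54, adjusted p = 0.0205) and Tm7sf2 (-0.58, adjusted p = 0.0194) passed as lower.

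**Figure D2:**
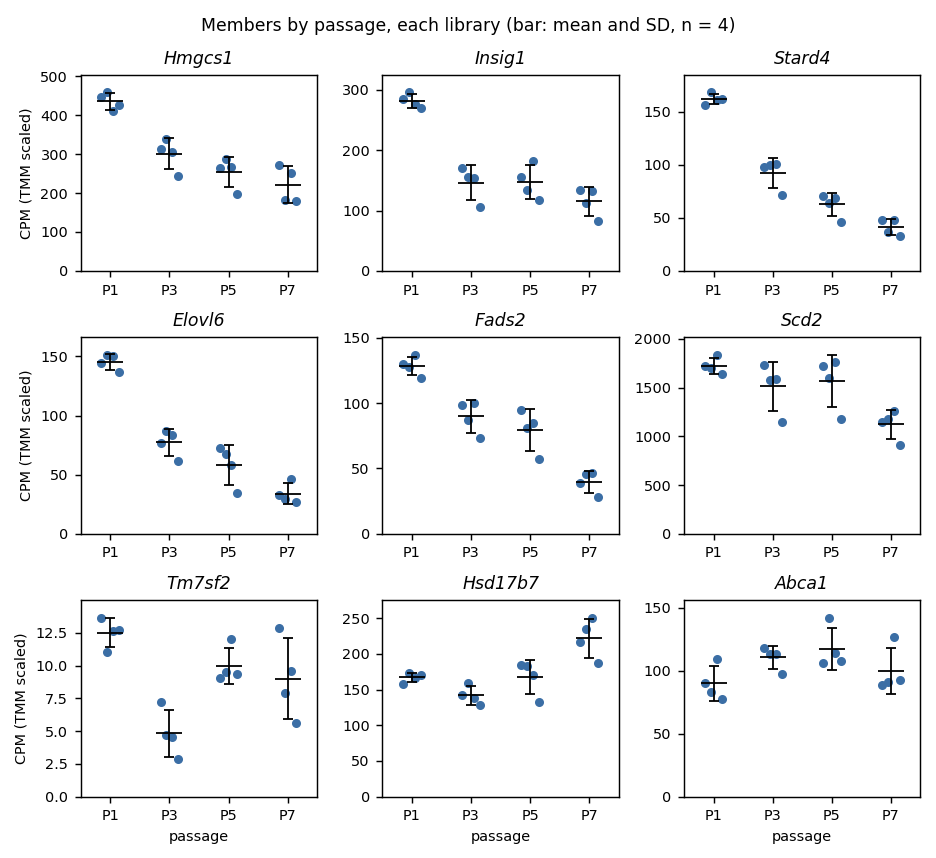
CPM (vertical axes, starting at 0) of 9 of the genes at P1, P3, P5 and P7 (horizontal axes), with 1 point for each of 4 libraries and the mean with its SD. Hmgcs1 and Insig1 drop mainly between P1 and P3, Elovl6 and Stard4 go on falling to P7, Fads2 and Scd2 drop at P7, Tm7sf2 is lowest at P3, Hsd17b7 is highest at P7 and the Abca1 libraries overlap at P1 and P7.

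Counted by step, 16 genes fell from P1 to P3 and did not pass in either later step. Of these, Hmgcs1 (-0.44, adjusted p = 0.0109), Acat2 (-0.51, adjusted p = 0.0229) and Idi1 (-0.70, adjusted p = 0.00421) still passed as lower at P7 than at P3. Another 5 (Dhcr7, Elovl6, Fads1, Fads2 and Acly) fell in the first and the last step, 4 (Mvk, Mvd, Tm7sf2 and Nr1h3) fell and then rose, and 3 (Acaca, Scd1 and Scd2) fell only from P5 to P7. Sc5d, Srebf1 and Abca1 passed in none of the 3 steps under TMM scaling, whereas with the GC offset Sc5d passed from P1 to P3 and Srebf1 from P5 to P7, both as lower. Set directly against P3, the P7 libraries had 11 genes lower, against 26.5% of all genes, and 5 higher, against 24.8%, with a median of -0.14. Without replicate 4 of every passage these were 13 and 5.

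Of the genes lower at P7 than at P3, 6 were lipogenesis genes, among them Elovl6 (-1.19, SE 0.19, adjusted p = 3.4e-05), Fads2 (-1.17, SE 0.15, adjusted p = 3.77e-06) and Fads1 (-0.86, SE 0.097, adjusted p = 7.5e-07). Stard4 (-1.15, SE 0.14, adjusted p = 1.96e-06) and Idi1 (-0.70, SE 0.19, adjusted p = 0.00421) were lower too. Higher at P7 than at P3 were Tm7sf2 (0.90, SE 0.24, adjusted p = 0.00413), Nr1h2 (0.72, SE 0.15, adjusted p = 0.000719), Hsd17b7 (0.64, SE 0.11, adjusted p = 6.06e-05), Scap (0.55, adjusted p = 3.85e-05) and Nr1h3 (0.54, adjusted p = 0.0359). Srebf1 (-0.016, adjusted p = 0.908), Srebf2 (-0.19, adjusted p = 0.146), Insig1 (-0.35, adjusted p = 0.069) and Abca1 (-0.15, adjusted p = 0.337) did not pass. With the GC offset Hmgcs1 and Nr1h3 were lost, Srebf2 (-0.44, adjusted p = 0.000628), Srebf1 (-0.23, adjusted p = 0.00924) and Fasn (-0.52, adjusted p = 0.00117) passed as lower, and Msmo1 (0.35, adjusted p = 0.0477) and Sc5d (0.24, adjusted p = 0.0407) passed as higher.

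Summed CPM of 8 cell cycle markers was 1339 to 1408 at P1, 1086 to 1262 at P3, 403.8 to 659.8 at P5 and 228.1 to 275.1 at P7, so most of its loss came after P3. Its part in the changes of the lipid genes was not tested. Adipocyte markers summed to 12.84 to 21.29 CPM at P7, with Adipoq, Plin1 and Lep at 0.

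Levels per length show the order among the genes. In CPM per kilobase of exon, Scd2, Fdps, Msmo1, Acly and Hmgcs1 were the 5 highest at P1 (316.1, 220.9, 126.1, 125.5 and 118.4) and again at P7 (206, 125.2, 92.82, 80.06 and 60.2), in the same order. Elovl6 went from rank 24 (24.49) to rank 34 (5.703) and Hsd17b7 from rank 23 (29.89) to rank 10 (39.77). Nr1h3 was last at both passages (2.735 and 2.048).

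Other lists of lipid metabolism held genes that rose and genes that fell, at shares to be read against 30.5% of all genes higher and 31.9% lower from P1 to P7. In that comparison 4 of 7 genes of triglyceride synthesis and lipid droplets rose and 0 fell (median 0.39), with Dgat2, which makes triglyceride, at 0.83 and the lipase gene Pnpla2 at 0.68. Of 7 genes of SREBP processing 4 rose and 2 fell (median 0.47), among them Insig2 (0.85), the second INSIG gene, and the protease gene Mbtps1 (0.60). Of the 7 genes that use isoprenoids outside cholesterol, 3 rose and 1 fell (median 0.13), Pdss1 at -1.50 and Fnta at 0.71. Sterol trafficking genes had 3 of 7 higher and 2 lower (median 0.06), with Scarb1 at -1.35 and Vldlr at 0.71, and other LXR targets 1 of 5 higher and 2 lower (median 0.24), with Smpdl3a at 0.99 and Lpcat3 at -0.43. Of 9 genes of fatty acid use, 3 rose and 4 fell (median 0.10), with Acsl3 at -1.0 and Acadvl at 0.95.

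E2f4 overexpression tested how these genes respond when E2f4, a regulator of cell cycle genes, is raised in pre-senescent cells. E2f4 itself stood at 35.5 and 47.5 CPM with vector and 1118 and 1180 CPM with overexpression (4.79, SE 0.15, adjusted p = 7.07e-08). Most of the sterol and lipogenesis genes were higher with it: 24 of 36 rose, against 28.9% of all 13199 genes tested, and 0 fell, against 28.2%, with a median of 0.59. The count was 6 of 8 on the route to squalene (median 0.84), 6 of 10 from squalene to cholesterol (0.61), 5 of 5 in the sensing group (0.63), 6 of 9 in lipogenesis (0.53) and 1 of 4 in efflux (-0.11).

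The largest rise was in Pmvk, phosphomevalonate kinase, followed by Mvd and Dhcr7. Pmvk had 3.45 and 4.84 CPM with vector and 14.9 and 14.1 CPM with E2f4 (1.83, SE 0.19, adjusted p = 3.53e-05). Mvd had 10.3 and 12.5 against 28.7 and 35.3 CPM (1.49, SE 0.16, adjusted p = 4.01e-05). Mvk had 19.4 and 22.1 against 42.0 and 45.4 CPM (1.08, SE 0.13, adjusted p = 7.57e-05). In each of the 3 genes both E2f4 libraries lay above both vector libraries, and other enzymes followed, with Dhcr7 at 1.34 (SE 0.13, adjusted p = 2.44e-05) and Acat2 at 0.92 (SE 0.12, adjusted p = 0.000127).

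Fasn, the fatty acid synthase, had 372 and 394 CPM with vector and 785 and 826 CPM with E2f4 (1.07, SE 0.098, adjusted p = 1.84e-05), and Fads2 rose by 0.96 (SE 0.12, adjusted p = 0.000112). Both SREBP genes rose: Srebf2 had 139 and 163 against 305 and 324 CPM (1.06, SE 0.11, adjusted p = 3.9e-05), and Srebf1 rose by 0.81 (adjusted p = 0.000429). Insig1 rose by 0.63 (adjusted p = 0.000629). The exporters did not pass, with Abca1 at -0.16 (adjusted p = 0.237) and Abcg1 at -0.76 (adjusted p = 0.107), nor did Hmgcs1 (0.14), Idi1 (-0.087), Scd1 (-0.045) or Elovl6 (0.24).

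The fold changes of this comparison rose with GC content (Spearman 0.62 over 10623 genes and 0.59 over the 36). With the GC offset 27 of the 36 rose and 1 fell, with a median of 0.50, and the sizes of GC-rich genes shrank: Mvk to 0.49, Mvd to 0.90, Srebf2 to 0.49, Srebf1 to 0.32 and Fasn to 0.51. Tm7sf2, Scap and Nr1h2 no longer passed, and Hmgcs1 (0.57), Idi1 (0.55), Msmo1 (0.78), Hsd17b7 (0.34), Sc5d (0.27) and Elovl6 (0.63) passed as higher and Abcg1 (-1.01) as lower. Most genes of the group were higher under both scalings, and Pmvk was the highest of them under both. Cell cycle markers summed to 928.7 to 942.2 CPM with vector and 1293 to 1452 CPM with E2f4, and their part was not tested. Other LXR targets had 0 of 5 higher and 3 lower (Smpdl3a -1.20, Mylip -0.67), and triglyceride genes 4 of 7 higher and 1 lower (Dgat2 1.69).

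**Figure D3:**
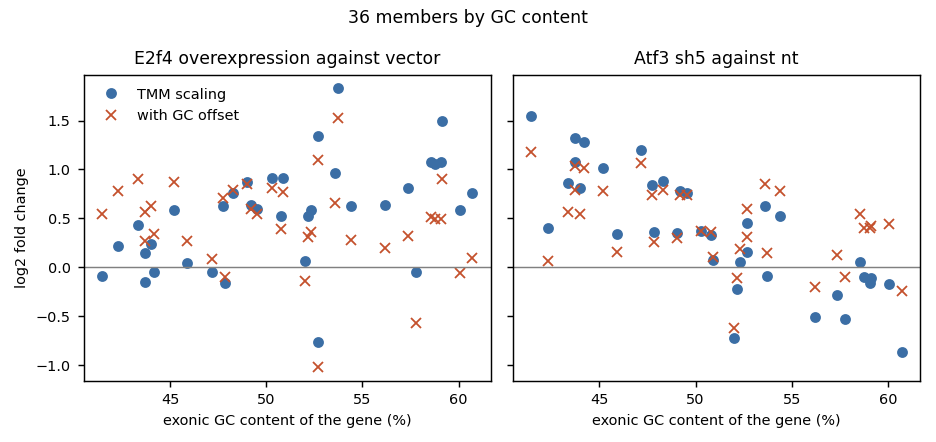
Log2 fold changes (vertical axes) of the 36 genes against the GC content of their exons in percent (horizontal axes) with E2f4 overexpression and with Atf3 sh5, under TMM scaling and with the GC offset. Under TMM scaling the points rise with GC in the first comparison and fall with GC in the second, and most points lie above 0 under both scalings.

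The E2f4 hairpin asked the converse in proliferating cells. E2f4 went from 59.6, 60.8 and 59.6 CPM to 21.6, 20.4 and 21.8 CPM (-1.50, SE 0.089, adjusted p = 2.14e-07). Only small changes followed in these genes: 3 rose, against 10% of all 12310 genes tested, and 5 fell, against 7.79%, with a median of 0.00. The 5 that fell were 4 lipogenesis genes and Nr1h2, and the 3 that rose were 2 enzymes and Insig1. Scd2, the highest of the 36 genes, went from 1336, 1350 and 1316 CPM to 968, 952 and 761 CPM (-0.58, SE 0.078, adjusted p = 0.000175), and Fasn from 655, 650 and 650 to 541, 540 and 519 CPM (-0.29, SE 0.055, adjusted p = 0.00214).

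Elovl6 fell by 0.28 (SE 0.075, adjusted p = 0.0185), Nr1h2 by 0.26 (SE 0.074, adjusted p = 0.027) and Fads1 by 0.19 (SE 0.061, adjusted p = 0.0451). Hmgcs1 rose by 0.26 (SE 0.065, adjusted p = 0.0131), Insig1 by 0.25 (SE 0.083, adjusted p = 0.0487) and Cyp51, lanosterol demethylase, by 0.24 (SE 0.064, adjusted p = 0.0174). Each of these shifts was less than 1.5-fold, and the hairpin and control ranges of each did not overlap. Srebf1 (-0.15, adjusted p = 0.151), Srebf2 (-0.072, adjusted p = 0.464), Nr1h3 (-0.13, adjusted p = 0.812) and Abca1 (0.21, adjusted p = 0.0629) did not pass. Leaving out single libraries gave from 2 genes (without nt replicate 1) to 12 (without sh1 replicate 3), with 4 without nt replicate 2 and 3 without nt replicate 3 or sh1 replicate 2. Scd2 and Fasn passed in all 6 of those fits, and the GC offset lost Insig1 and Nr1h2. Cell cycle markers went from 753–794.7 to 587.5–611.2 CPM, and their part was not tested.

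Tead1 knockdown gave small rises through sterol synthesis and the clearest rise in the exporters. Tead1 stood at 507.9 to 572.1 CPM in the nt libraries, 267.9 to 284.9 CPM with sh3 (-0.96, SE 0.042, adjusted p = 4.63e-17) and 313.3 to 320.4 CPM with sh4 (-0.78, SE 0.042, adjusted p = 8.58e-15). Both hairpins were compared with the same 3 nt libraries, so their values are given side by side. With sh3, 19 of the 36 genes rose, against 17.6% of all 13012 genes tested, and 2 fell, against 17.7%, and with sh4 18 rose, against 14.4%, and 1 fell, against 14.7%. The median was 0.19 with each hairpin, and no gene of the 36 rose 2-fold. Set against each other, sh4 had 1 gene higher than sh3, against 3.34% of all genes, and 2 lower, against 4.03%.

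Abca1, which exports cholesterol to lipid-poor apolipoproteins, had 54.7, 54.6 and 52.0 CPM in nt, 91.6, 115 and 103 CPM with sh3 (0.94, SE 0.065, adjusted p = 6.45e-13) and 79.5, 87.4 and 92.7 CPM with sh4 (0.69, SE 0.065, adjusted p = 1.23e-09). It was lower with sh4 than with sh3 by 0.25 (SE 0.062, adjusted p = 0.00924). Abcg1, which exports it to lipoprotein particles, had 11.1, 11.7 and 10.8 CPM in nt, 18.4, 20.6 and 18.9 CPM with sh3 (0.79, SE 0.098, adjusted p = 1.17e-07) and 17.2, 21.0 and 20.2 CPM with sh4 (0.80, SE 0.097, adjusted p = 1.39e-07). In both exporters every hairpin library lay above every nt library. The LXR gene Nr1h3 was near 1 CPM in most of these libraries and did not pass (-0.63, adjusted p = 0.171 with sh3 and 0.099, adjusted p = 0.86 with sh4). Nr1h2, the other LXR gene, did not pass with either hairpin. It was the higher of the pair in the passage series (33.46 against 2.048 CPM per kilobase of exon at P7). Other LXR targets had 4 of 5 higher and 1 lower with sh3 (Pltp 0.67, Mylip 0.66) and 3 higher and 1 lower with sh4 (Pltp 0.65, Mylip 0.70).

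Scd1, also under LXR and SREBP control, had 128, 121 and 127 CPM in nt, 171, 185 and 184 CPM with sh3 (0.52, SE 0.044, adjusted p = 5.02e-11) and 166, 166 and 164 CPM with sh4 (0.40, SE 0.044, adjusted p = 2.34e-08). In the synthesis route Msmo1 was higher by 0.44 and 0.40 (SE 0.053 each, adjusted p = 7.38e-08 and 7.49e-07), Hsd17b7 by 0.38 (adjusted p = 8.69e-07) and 0.45 (adjusted p = 4.84e-08), and Mvd by 0.46 (adjusted p = 1.08e-05) and 0.36 (adjusted p = 0.000479), sh3 first in each pair. Acat2 passed with sh3 under the GC offset and not under TMM scaling (0.18, adjusted p = 0.0316). Cyp51 rose by 0.28 with sh3 (adjusted p = 1.11e-05), and Pmvk by 0.40 (adjusted p = 0.0203) and Dhcr7 by 0.32 (adjusted p = 0.00408) with sh4. The sensing genes rose by less: Srebf1 by 0.20 (adjusted p = 0.000706) and 0.26 (adjusted p = 3.34e-05), Srebf2 by 0.20 (adjusted p = 0.000319) and 0.19 (adjusted p = 0.000535), and Insig1 by 0.26 (adjusted p = 0.000544) and 0.25 (adjusted p = 0.00103). Insig2, of the SREBP processing list, was at -0.83 and -0.86.

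Against this, Elovl6 fell with both hairpins, from 36.1, 33.5 and 35.7 CPM to 29.4, 28.1 and 28.6 CPM with sh3 (-0.29, SE 0.078, adjusted p = 0.00378) and 29.6, 24.0 and 31.0 CPM with sh4 (-0.31, adjusted p = 0.00244). Fasn fell with sh3 (-0.23, adjusted p = 0.000403) and not with sh4 (-0.06, adjusted p = 0.399), a difference between hairpins that itself passed (0.17, SE 0.049, adjusted p = 0.0299). Scd2 was lower with sh4 than with sh3 by 0.16 (SE 0.037, adjusted p = 0.00639). Leaving out single libraries gave 1 (without sh3 replicate 2 or sh4 replicate 1) to 4 genes that differed between the hairpins, and 2 without sh3 replicate 3 or sh4 replicate 3, where Fasn was lost. Summed adipocyte markers were 12.41 to 13.95 CPM in nt, 18.46 to 19.63 CPM with sh3 and 17.73 to 18.6 CPM with sh4, and their part was not tested.

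**Figure D4:**
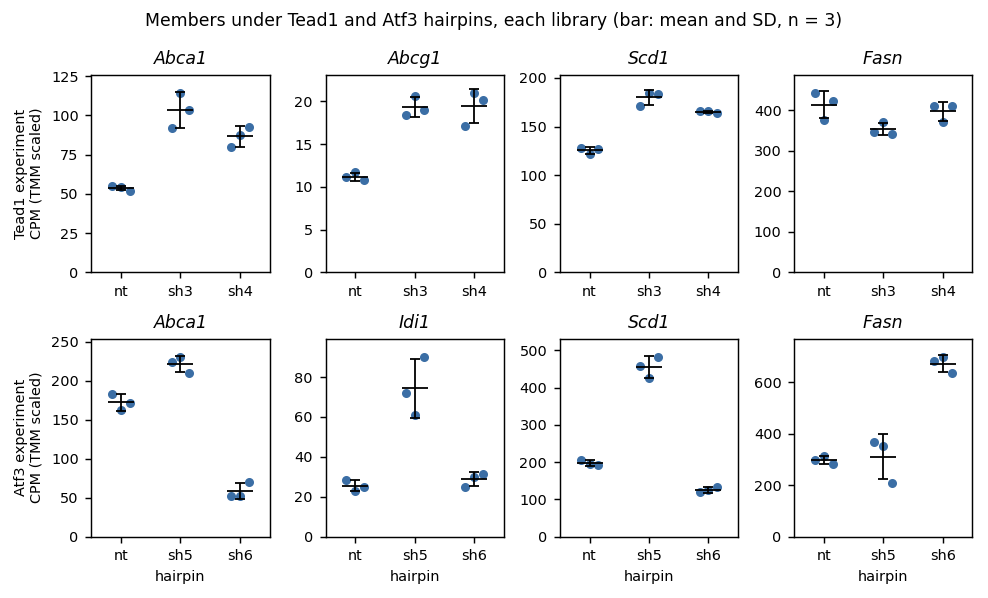
CPM (vertical axes, starting at 0) of Abca1, Abcg1, Scd1 and Fasn in the Tead1 experiment (nt, sh3, sh4) and of Abca1, Idi1, Scd1 and Fasn in the Atf3 experiment (nt, sh5, sh6), with 1 point for each of 3 libraries and the mean with its SD. Abca1 and Abcg1 lie above nt with both Tead1 hairpins, whereas Abca1, Idi1, Scd1 and Fasn take different levels under the 2 Atf3 hairpins.

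The 2 Atf3 hairpins did not give 1 response. Atf3 was low in all 9 libraries, 2.771 to 3.308 CPM in nt, 0.4511 to 2.098 CPM with sh5 (-1.14, SE 0.39, adjusted p = 0.0447) and 1.511 to 2.092 CPM with sh6 (-0.79, SE 0.39, adjusted p = 0.114), so the loss of the targeted transcript passed with sh5 only. The hairpins shared the 3 nt libraries. With sh5, 20 of the 36 genes rose, against 17.7% of all 13345 genes tested, and 3 fell, against 18.1%, with a median of 0.36. With sh6, 11 rose, against 23.8%, and 6 fell, against 26%, with a median of 0.13. Between the hairpins, sh6 had 5 genes higher than sh5, against 25.9% of all genes, and 15 lower, against 26.6%.

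With sh5, 11 of the 20 genes that rose were enzymes of sterol synthesis, 5 were lipogenesis genes, 2 sensing genes and 2 efflux genes. Idi1 had 28.5, 22.9 and 24.9 CPM in nt, 72.1, 61.0 and 90.2 CPM with sh5 (1.55, SE 0.15, adjusted p = 0.000175) and 24.99, 29.9 and 31.6 CPM with sh6 (0.18, adjusted p = 0.36). Hmgcs1 had 177, 153 and 157 CPM in nt, 328, 308 and 391 CPM with sh5 (1.07, SE 0.098, adjusted p = 0.000106) and 166, 173 and 178 CPM with sh6 (0.085, adjusted p = 0.499). For both genes all sh5 libraries lay above all nt and sh6 libraries, and sh6 was lower than sh5 by a log2 difference of -1.37 (SE 0.15, adjusted p = 4.4e-05) in Idi1 and -0.99 (SE 0.098, adjusted p = 2.03e-05) in Hmgcs1. Cyp51 (1.01, SE 0.11, adjusted p = 0.000336) and Fdft1, squalene synthase (0.88, SE 0.08, adjusted p = 0.000105), rose with sh5, and Cyp51 was lower with sh6 than with sh5 (-0.76, SE 0.11, adjusted p = 0.000322).

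A pair of late enzymes rose with both hairpins. Sc5d, a sterol desaturase, had 50.8, 47.2 and 44.5 CPM in nt, 114, 110 and 131 CPM with sh5 (1.32, SE 0.087, adjusted p = 1.52e-05) and 156, 164 and 155 CPM with sh6 (1.74, SE 0.087, adjusted p = 2.14e-07). Hsd17b7 had 101, 98.8 and 92.3 CPM in nt, 238, 224 and 245 CPM with sh5 (1.28, SE 0.078, adjusted p = 9.82e-06) and 206, 236 and 227 CPM with sh6 (1.19, SE 0.078, adjusted p = 1.08e-06). Insig1 rose with both as well, by 0.84 with sh5 (adjusted p = 8.01e-05) and 0.57 with sh6 (adjusted p = 9.2e-05), with sh6 under sh5 by -0.27 (adjusted p = 0.00968). Msmo1 rose by 1.15 with sh6 (SE 0.12, adjusted p = 2.77e-05). In Sc5d and Hsd17b7 every hairpin library lay above every nt library.

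Abca1, Scd1 and Fads2 went in opposite directions under the 2 hairpins, whereas Elovl6 (0.81 and 0.68), Acaca (0.33 and 0.30) and Abcg1 (0.46 and 1.15) rose with both and Acss2 (-0.73 and -1.16) fell with both, sh5 first in each pair. The sh5 calls of Abcg1 and Abca1 depended on single libraries. With 1 library left out, that of Abcg1 was kept only without sh5 replicate 3. That of Abca1 was lost without nt replicate 2 or 3 and without sh5 replicate 1 or 2. Abca1 had 184, 162 and 171 CPM in nt, 224, 231 and 210 CPM with sh5 (0.36, adjusted p = 0.0293) and 52.2, 52.6 and 70.1 CPM with sh6 (-1.56, SE 0.12, adjusted p = 2.43e-06), a difference of -1.93 between sh6 and sh5 (SE 0.12, adjusted p = 7.88e-07). Scd1 had 205, 195 and 192 CPM in nt, 458, 425 and 483 CPM with sh5 (1.20, SE 0.076, adjusted p = 1.07e-05) and 118, 125 and 134 CPM with sh6 (-0.65, adjusted p = 5.22e-05), a difference of -1.86 (SE 0.077, adjusted p = 1.04e-07). For both genes the 3 groups did not overlap, with sh5 above nt and sh6 below it. Fads2 followed them, at 0.63 with sh5 and -0.63 with sh6 (adjusted p = 0.000549 and 9.23e-05) and a difference of -1.26 (SE 0.08, adjusted p = 1.15e-06).

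Fasn differed the other way round, with 299, 315 and 283 CPM in nt, 369, 354 and 209 CPM with sh5 (0.055, adjusted p = 0.82) and 682, 700 and 638 CPM with sh6 (1.17, SE 0.17, adjusted p = 0.000291), a difference of 1.12 between sh6 and sh5 (SE 0.17, adjusted p = 0.000411). Abcg1 rose with sh6 (1.15, SE 0.16, adjusted p = 0.000164) and by less with sh5 (0.46, adjusted p = 0.0458). Acss2 fell with sh6 (-1.16, SE 0.14, adjusted p = 6.3e-05) and with sh5 (-0.73, adjusted p = 0.00339), Scap fell with sh6 (-0.83, SE 0.16, adjusted p = 0.00184), and Scd2 was lower with sh6 than with sh5 (-0.80, SE 0.15, adjusted p = 0.00127). Both SREBP genes and the LXR gene Nr1h3 did not pass under TMM scaling: Srebf1 stood at -0.29 with sh5 (adjusted p = 0.246), -0.079 with sh6 (adjusted p = 0.753) and 0.21 between them (adjusted p = 0.371), Srebf2 at -0.10 (adjusted p = 0.682), -0.15 (adjusted p = 0.528) and -0.046 (adjusted p = 0.846), and Nr1h3 at -0.53 (adjusted p = 0.32), -0.43 (adjusted p = 0.408) and 0.10 (adjusted p = 0.857). Srebf2 had 274, 270 and 152 CPM with sh5 and Nr1h2 had 48.8, 61.4 and 22.0 CPM (-0.86 against nt, SE 0.28, adjusted p = 0.0362), with replicate 3 lowest in both.

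Fold changes with sh5 fell with GC content (Spearman -0.70 over 10669 genes and -0.81 over the 36). With the GC offset 24 genes rose and 1 fell with sh5, with a median of 0.41. Srebf2 (0.40, adjusted p = 0.00104), Fasn (0.55), Mvk (0.40), Mvd (0.42), Scap (0.45), Dhcr7 (0.31) and Fads1 (0.19) then passed as higher, and Msmo1, Nsdhl, Acly, Abca1 and Nr1h2 no longer passed. For sh6 the offset gave 15 higher and 8 lower, with Mvk (0.31), Mvd (0.37), Fdft1 (0.17) and Cyp51 (0.19) gained as higher and Tm7sf2 (-0.89) and Nr1h2 (-0.52) as lower. For sh6 against sh5 it gave 4 higher and 19 lower, with Fdps (-0.38), Dhcr7 (-0.32), Srebf2 (-0.44) and Fads1 (-0.18) gained as lower and Acly lost. Without sh5 replicate 3, 21 rose and 3 fell with sh5, and 15 rose and 9 fell with sh6. With sh6 the summed skeletal muscle markers were 195.8 to 214.2 CPM (Myog at 0), against 37.09 to 38.42 CPM in nt and 13.7 to 17.04 CPM with sh5. Only 2 of these markers were tested, and with sh6 Acta1 rose (2.56) and Des fell (-1.01). With sh5 Acta1 fell (-1.38). Of the 8 fibroblast markers 5 fell and 1 rose with sh6 (Lum -2.65, Col1a1 -1.83). The part of these shifts in the difference between the hairpins was not tested.

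Among other LXR targets, 2 of 5 rose and 1 fell with sh5 and 1 rose and 3 fell with sh6. Pltp, a phospholipid transfer protein, was at -1.27 and -2.25, and Mylip, which marks lipoprotein receptors for degradation, at 0.67 and -1.11.

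The ATAC-seq lists addressed how prominent the start sites of these genes were among all open regions. The authors called peaks in each sample separately, with 142384 to 231558 peaks per sample, and the lists give no read depth, so the strength of a start site was taken as the percentile of its strongest peak within 1000 bases among all peaks of that sample. The lists were longer at P7 (200376 to 231558 peaks) than at P1 (168982 to 186562), and list length moves a percentile, so a change in percentile cannot be told apart from the change in list length and is no measure of open chromatin lost or gained. From P1 to P7 the ranges did not overlap in 13 of the 36 genes in the lower direction and 4 in the higher direction, against 33% and 13.5% of all 12970 genes, shares close to the background. The median difference was -0.402 percentile points over the 36 genes and -1.23 over all genes. With 4 samples against 3, an exact two-sided permutation test cannot go below p = 0.0286.

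Elovl6 went from percentile 69.8 ± 6.48 (SD, n = 4) at P1 to 45.5 ± 8.56 (SD, n = 3) at P7 (exact permutation p = 0.0286). Fads2 went from 98.84 to 91.94 and Tm7sf2 from 97.14 to 89.84 (exact permutation p = 0.0286 each), all 3 start sites being lower in every P7 sample than in any P1 sample. Those of Mvk (99.69 to 99.95), Fdps (98.91 to 99.85) and Acss2 (99.45 to 99.75) were higher in every P7 sample than in any P1 sample. The transcripts of these genes were lower at P7 than at P1 (-0.70, -0.82 and -1.18). The percentile of Acaca went from 23.8 ± 16.1 to 73.8 ± 4.83 (exact permutation p = 0.0286), and 1 P1 sample had no peak there. The RefSeq promoter held for Acaca lies inside the gene, at chr11:84195188-84195487, whereas the gene starts at 84129635. The start site used may therefore not be the main start of the gene, and its percentile was not set against the transcript. The mean percentile of Abca1 was 93.08 in the P1 samples and 92.43 in the P7 samples (exact permutation p = 0.371), and Insig1 (p = 0.257), Srebf1 (p = 0.714), Srebf2 (p = 0.314) and Nr1h3 (p = 0.143) did not pass the exact permutation test either.

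**Figure D5:**
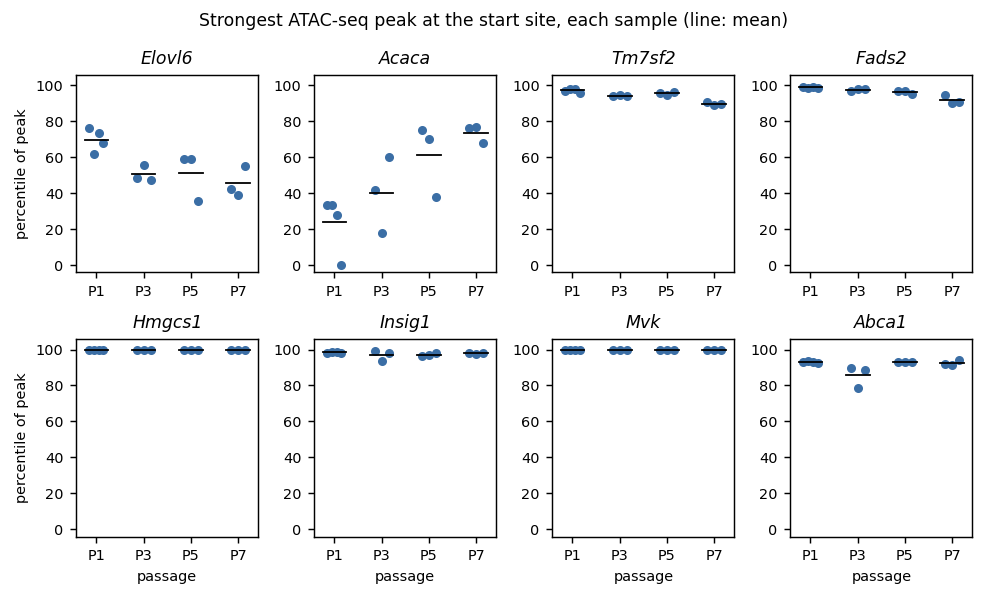
Percentile of the strongest ATAC-seq peak within 1000 bases of the start site (vertical axes) at P1, P3, P5 and P7 (horizontal axes) for 8 of the genes, with 1 point per sample (4 at P1, 3 at each later passage) and the group mean. Elovl6 declines from 69.8 to 45.5 and Acaca rises from 23.8 to 73.8 between P1 and P7, while Hmgcs1, Insig1 and Mvk lie near the top of the scale at every passage. The start site used for Acaca may not be the main start of that gene.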

How the data were processed

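RNA-seq was analysed for 44 libraries and ATAC-seq for 13 peak lists, and the methylation samples were not analysed here. The deposited gene counts were made by the authors with Trimmomatic 0.39, HISAT2 2.2.1 on mm10 and HTSeq 0.12.4 without strand. The deposited peak lists, called by the authors in each sample with MACS2 after Bowtie2 2.3.5.1, give a −log10 p per peak. Reads on no gene (7.5 to 16.761% in the intervention files) were left out. Their share differed between the groups of the E2f4 overexpression experiment, at 12.915 and 12.263% with vector and 7.893 and 7.5% with E2f4. The part of this difference in the fold changes was not tested. The largest share, 16.761%, was that of Atf3 sh5 replicate 3.

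Each experiment was fitted with edgeR 4.0.16 in R 4.3.3 (filterByExpr, TMM, quasi-likelihood F test, Benjamini-Hochberg over 12310 to 13442 genes, threshold 0.05). The method was tested on simulated counts, where a limit on false calls was set only for counts without a trend with GC content. That limit does not cover comparisons whose fold changes followed GC content, such as E2f4 overexpression and Atf3 sh5. Replicates differed by more than sampling noise in all 50 pairs (chi-square per degree of freedom 2.748 to 63.67). GC content was taken from RefSeq for 24866 of 24984 genes, of which 435 matched by an older symbol. Alternatives covered DESeq2 1.42.0, scaling, filters, the replicate block, the 2 groups alone and each library left out. The GC offset, alone and with the block, and the fit without replicate 4 of every passage were added after the data were seen.

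The members and lists were chosen with earlier results of these data known. Full statistics are given for at most 8 members per comparison, those of largest log2 fold change that passed. Srebf1, Srebf2, Insig1, Nr1h3, Abca1 and the targeted genes are given in any case, and other lists by counts with at most 2 examples. Promoter sequences are from RefSeq on GRCm38.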

Additional observations from a re-analysis of the deposited data

Results flagged for a closer look

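Of 180 groups of 4 samples examined over the 36 genes, 11 held a sample far from the other 3 by Dixon's criterion, 8 in RNA-seq and 3 in ATAC-seq. Chance flags about 1 in 20 groups. Replicate 4 at P3 accounted for 4 of them, all low. It had 59.1 CPM of Acat2 (others 97.1 to 100), 71.39 CPM of Stard4 (98.18 to 101.1), 297.8 CPM of Scd1 (403.8 to 420.6) and 2.414 CPM of Nr1h3 (3.155 to 3.288). Replicate 4 at P7 had 49.51 CPM of Nsdhl (72.71 to 75.27).

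The other RNA-seq values lay above their groups. Replicate 3 had 12.02 CPM of Tm7sf2 at P5 (others 9.046 to 9.542), 926.3 CPM of Fasn at P1 (832.1 to 845.5) and 127.2 CPM of Abca1 at P7 (88.47 to 92.93). In the ATAC-seq percentiles at P1, replicate 4 had 99.65 at Mvk (99.7 to 99.71) and 0 at Acaca, where it had no peak (28.02 to 33.52), and replicate 2 had 84.49 at Nr1h3 (88.87 to 89.13).

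Within the Atf3 experiment 5 genes differed by more than 2-fold between sh6 and sh5 in edgeR's direct test of 1 hairpin against the other. The log2 differences, sh6 minus sh5, were -1.93 for Abca1, -1.86 for Scd1, -1.37 for Idi1, -1.26 for Fads2 and 1.12 for Fasn.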

How the results depend on the processing

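Of the recomputed counts of genes that passed, 237 stayed within 1.5 times the main count, 12 fell below and 2 rose above that, and of 2925 recomputed values of named genes 2733 kept direction and side of the threshold, 115 lost it, 40 gained it and 37 changed sign. The cause of each change was not tested. Depth limits the low genes, such as Nr1h3 and Atf3.

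From P5 to P7, 6 genes passed with only the 2 groups fitted, against 12. With the GC offset the median log2 fold change of the genes was 0.50 with E2f4 overexpression, 0.41 with Atf3 sh5, 0.04 with sh6 and -0.27 for sh6 against sh5. With it Srebf2 was -0.083 from P3 to P5 and 0.40 with Atf3 sh5, Srebf1 was 0.12 with sh5 and -0.14 for sh6 against sh5, and Nr1h3 was -0.26 for the latter. Insig1 was -0.017 from P3 to P5 without replicate 4 of every passage, and Srebf1 was 0.0059 for P7 against P3 with only the 2 groups.

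Replicates shared numbers across groups. Correlations of same-numbered deviations were -0.2616 to 0.2758 over the passages (11 of 24 pairs over 0.1). They were 0.1418 with E2f4 overexpression, 0.02319 to 0.03423 with E2f4 sh1, -0.04457 to 0.1117 with Tead1 and -0.1581 to 0.1374 with Atf3. The replicate 4 libraries correlated positively at every pair of passages, from 0.1051 (P1 with P5) to 0.2758 (P3 with P7). They may thus be a linked series, which the labels do not say. The main fit did not take the numbers to pair the samples. The replicate block gave 13 genes from P3 to P5 (10 higher, 3 lower). With the block Abca1 passed from P1 to P3 (0.31, adjusted p = 0.0409), Insig1 from P5 to P7 (-0.36, adjusted p = 0.0264) and for P7 against P3 (-0.35, adjusted p = 0.0115), Fads1 was lost with E2f4 sh1 (-0.19, adjusted p = 0.0539), and no other named gene changed its call. GC offset and replicate block together gave 20 genes from P5 to P7, medians of 0.50 with E2f4 overexpression, 0.41 with Atf3 sh5, 0.041 with sh6 and -0.27 for sh6 against sh5, and values of -0.082 for Srebf2 from P3 to P5, 0.12 for Srebf1 and 0.40 for Srebf2 with sh5, and -0.13 for Srebf1 and -0.28 for Nr1h3 for sh6 against sh5.

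With 1 library left out, the genes that passed numbered 2 to 10 from P3 to P5, 7 to 17 from P5 to P7, 2 to 12 with E2f4 sh1 and 1 to 4 for Tead1 sh4 against sh3. Medians ran from 0.56 to 0.60 with E2f4 overexpression, -0.027 to 0.053 with E2f4 sh1, 0.16 to 0.21 with Tead1 sh3, 0.17 to 0.21 with sh4, 0.085 to 0.15 with Atf3 sh6 and -0.24 to -0.11 for sh6 against sh5. Genes that changed sign ran from -0.12 to 0.10 (Insig1) and -0.02 to 0.13 (Abca1) from P3 to P5, -0.25 to 0.091 (Nr1h3) from P5 to P7, -0.079 to 0.078 (Srebf1) for P7 against P3, -0.37 to 0.12 (Nr1h3) with E2f4 sh1 and -0.06 to 0.46 (Nr1h3) with Tead1 sh4. For Tead1 sh4 against sh3 they ran from -0.035 to 0.019 (Srebf2) and -0.049 to 0.039 (Insig1), for Atf3 sh5 from -0.24 to 0.16 (Srebf2), and for Atf3 sh6 against sh5 from -0.044 to 0.35 (Srebf1), -0.11 to 0.56 (Nr1h3) and -0.29 to 0.091 (Srebf2).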
